A study of Homo sapiens with 6 samples.

Results

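The 39 genes described here carry glucose into the cell, break it down to pyruvate and lactate, or belong to the transcriptional response to low oxygen. They were chosen by name, from a list of glucose transport, glycolysis and hypoxia response genes, and the rule uses no measured value, although the list was drawn up with earlier results of these data known. All 39 were found among the 57445 genes of the count table, and 38 passed the filter on low counts that left 17129 genes for testing; CA9 did not pass. The cells were H358, an established human lung cancer line of epithelial type kept in RPMI medium with serum, and RNA was sequenced from 3 groups of 2 libraries each. WT is the parental line with wild-type BRMS1. C1 and C2 are each 1 clone, called isogenic in the labels, and both alleles are listed as BRMS1v2 A273V. BRMS1 encodes a metastasis suppressor that works in a histone deacetylase co-repressor complex. The labels name no low-oxygen exposure, and the making of the clones, the meaning of the replicate number and the origin of the 2 replicates (1 culture or more) are not given in the sources used here. The p-values therefore measure only the spread between these libraries.

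Glycolysis splits 1 glucose into pyruvate in a chain of enzyme steps in the cytoplasm, and lactate dehydrogenase turns pyruvate into lactate when it is not burned in mitochondria. Many tumour cells run this chain fast even in air. Hypoxia-inducible factor (HIF) is a dimer whose alpha subunit is marked for destruction by EGLN prolyl hydroxylases while oxygen is present, so that its activity is set mainly through protein stability and not through its mRNA. When oxygen falls, HIF binds a short DNA core and raises the mRNA of glucose carriers, glycolytic enzymes, and factors for vessel growth, mitophagy and collagen processing.

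The HIF binding core was read here as the letters ACGTG or GCGTG on either strand (CACGT or CACGC on the strand printed), and an ACGTG core overlaps the E-box CACGTG wherever C precedes it. RefSeq windows of the 250 bases before the annotated start (GRCh38.p14) were found for 34 members, and 24 of them (70.6%) held at least 1 such core, against 43.2% of all 35116 windows and 49.3% of the 22199 windows of protein-coding genes. Each member counts with 1 window, the nearest to its principal GENCODE start, while the other 2 shares count every window of every gene. The sets are therefore not alike, and some member windows lay far from that start (EGLN1 2757 and PGAM1 1658 bases). A match describes letters and is not a measured binding site. No window was found for SLC2A3, PFKFB2, VEGFA, BNIP3L and NDRG1. The 4 upstream stretches below are shown because their genes carry the main results: AK4 and HK2 differed between the clones and WT, and GAPDH and BNIP3 moved in opposite directions between the replicates. They run 5′ to 3′ on the gene's strand, with the matched letters in capitals, and bases annotated as exon of a coding transcript are left out.
AK4, chr1:65148058-65148202 (+ strand): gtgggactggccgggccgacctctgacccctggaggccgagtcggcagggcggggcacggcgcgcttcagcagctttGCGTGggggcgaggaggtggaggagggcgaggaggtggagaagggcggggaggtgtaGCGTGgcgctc
HK2, chr2:74833877-74833980 (+ strand): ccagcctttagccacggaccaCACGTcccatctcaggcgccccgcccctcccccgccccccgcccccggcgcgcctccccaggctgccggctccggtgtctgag
GAPDH, chr12:6535014-6535263 (+ strand): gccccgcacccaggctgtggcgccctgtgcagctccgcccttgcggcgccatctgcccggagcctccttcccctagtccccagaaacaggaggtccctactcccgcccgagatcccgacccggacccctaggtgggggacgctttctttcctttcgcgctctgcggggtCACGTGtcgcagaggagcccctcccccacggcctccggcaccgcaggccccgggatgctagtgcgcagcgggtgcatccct
BNIP3, chr10:131982014-131982173 (- strand): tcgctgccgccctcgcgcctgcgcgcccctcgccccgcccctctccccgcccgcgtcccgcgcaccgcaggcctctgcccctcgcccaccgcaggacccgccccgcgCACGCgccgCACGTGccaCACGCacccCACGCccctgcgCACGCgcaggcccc
The AK4 stretch holds 2 GCGTG cores and no ACGTG core. HK2 has 1 CACGT in the 104 bases shown. In GAPDH the single match is a CACGTG, which reads as ACGTG on both strands, and BNIP3 has 1 CACGTG and 4 CACGC within 160 bases.

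Library depth ran from 27527867 to 37146270 counts in genes, and the members held 1.6% to 1.85% of them. Values are given as CPM (counts scaled to a fixed library total) after TMM scaling, replicate 1 first. Of the 10 epithelial and lung markers 7 were tested, and the keratins KRT7, KRT8, KRT18 and KRT19 stood at 737 to 1688 CPM, whereas the surfactant genes SFTPB and SFTPC and SCGB1A1 were at or near 0. Summed CPM of the 7 fibroblast markers ranged from 39.4 to 70.8. COL1A1 (25.9 to 57.1 CPM) and LUM (13.0 to 24.5) gave most of it, and COL1A2, DCN, PDGFRA, PDGFRB and THY1 were near 0. The 6 leucocyte markers summed to between 2.67 and 5.25 CPM, with PTPRC and CD3E below 0.5 and CD14 at 0.737 to 3.30. The 4 endothelial markers found summed to between 9.59 and 42.2 CPM, of which KDR gave most. CDH5 stood at 0.34 to 2.44 CPM and TIE1 was near 0. With the block KDR and CDH5 were called higher in C1 (log2 difference 1.03 and 1.82), and COL1A1, CD14 and KDR in replicate 2 (0.64, 1.19 and 1.15); the part of these in the results was not tested, and fewer cells of a type and less RNA per cell cannot be told apart in bulk RNA. BRMS1 itself measured 42.9 and 34.7 CPM in WT, 26.9 and 30.0 in clone C1, and 28.6 and 25.2 in clone C2 (log2 difference of the clones' mean from WT -0.49, adjusted p = 0.45, edgeR), and a change of 1 residue cannot be checked from counts. Libraries of 1 group differed by replicate number, and the 23 proliferation genes summed to between 3974 and 4744 CPM in replicate 1 and between 653 and 1604 in replicate 2. Each group comparison was therefore fitted without and with the replicate number as a block, and the fit without the block is the main one.

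Most of the glycolytic chain did not pass the test between the clones and WT in either fit, and AK4 and SLC2A3 had the largest differences among the members. AK4 was the only member called in the main fit, in the mean of both clones. With the block, SLC2A3 and AK4 were lower and VEGFA was higher in each clone, HK2 and HIF1A were higher and ENO2 lower in C1, and ADM was added in the mean of both clones. In the main fit 0 of 38 tested members passed in C1 and 0 in C2, where 0.0117% of all genes were called in either comparison, with 6 members at an unadjusted p under 0.05 in each; DESeq2 called HK2 and AK4 in C1 and AK4 in C2. In the mean of the clones 1 member was called, with 0.198% of all genes called. With the block, 3 members were higher and 3 lower in C1, where 2.96% of all genes were called higher and 4.07% lower. In C2, 1 was higher and 2 lower, against 1.94% and 2.59% of all genes. In the mean of the clones, 4 were higher and 3 lower, against 4.12% and 5.63%. The median log2 difference of the 38 members in the blocked fit was -0.07 in C1, 0.07 in C2 and 0.01 in the mean of the clones, beside -0.01, 0 and -0.01 over all genes. The comparisons of C1 and of C2 use the same WT libraries, so their values are given side by side and their likeness is not a separate result. Of the 23 proliferation genes, 2 were lower in C1 (TK1 and TYMS, median of the list -0.87) and 0 in C2 (median -0.10) in the blocked fit, and the part of growth state in the members' differences was not tested. Without C2 replicate 1 or C2 replicate 2 the blocked fit called AK4 alone in C1 and 0 members in C2, and without C1 replicate 2 it called NDRG1 and EGLN3 higher in C1 as well.

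**Figure D1:**
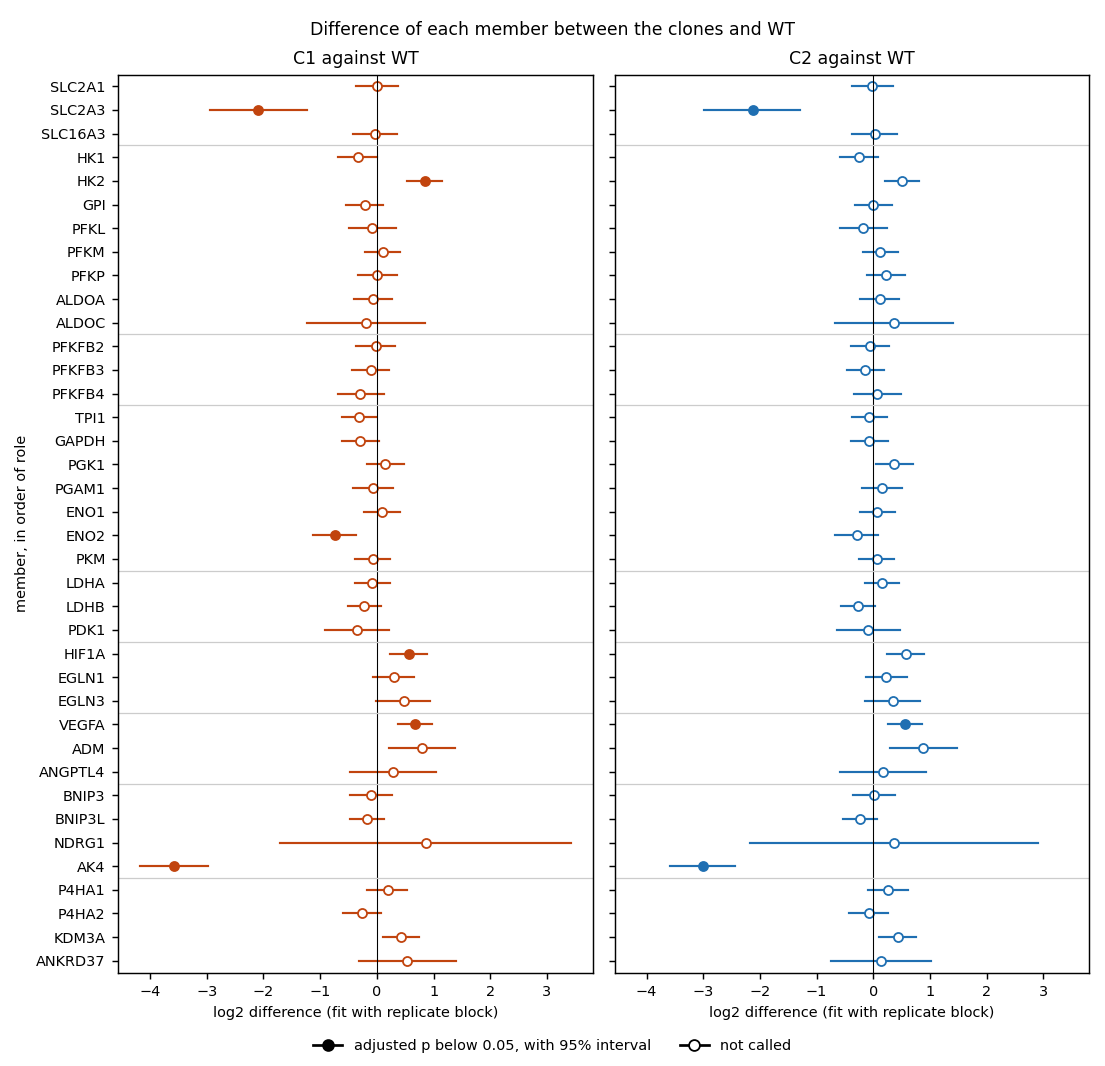
Log2 difference from WT of the 38 tested members (vertical axis, in order of role, grey lines between roles) for C1 on the left and C2 on the right, from the edgeR fit with the replicate block; points are estimates, lines 95% intervals, and filled points have an adjusted p below 0.05. AK4 at -3.58 and -3.01 and SLC2A3 at -2.09 and -2.13 lie far to the left in both panels, and most chain enzymes lie near 0.

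Glucose enters through SLC2A1 (GLUT1), the general carrier, and SLC2A3 (GLUT3), a carrier of higher affinity, and lactate leaves through SLC16A3 (MCT4). SLC2A3 measured 4.19 and 8.65 CPM in WT, 1.41 and 1.34 in clone C1, and 0.667 and 2.35 in clone C2. Every clone library lay below both WT libraries, and replicate 2 was the higher one in WT and C2. The log2 difference in the blocked edgeR fit was -2.09 in C1 (SE 0.39, adjusted p = 0.0082), -2.13 in C2 (SE 0.39, 0.0092) and -2.11 in the mean of the clones (SE 0.31, 0.0015), about 4.25-fold and 4.39-fold lower in the single clones. The size moved with the library left out: across the alternatives to the blocked fit it ran from -2.82 (without C1 replicate 1) to -1.41 (without C1 replicate 2) in C1 and from -2.94 (without C2 replicate 2) to -1.65 (without C2 replicate 1) in C2. Without the block the same differences were -2.22, -2.08 and -2.15, with adjusted p of 0.48, 0.62 and 0.25. Leaving out C2 replicate 1 or C2 replicate 2 ended the blocked call in C1 (adjusted p 0.068 and 0.063) and in C2 (0.31 and 0.23), and that of the mean was lost without C2 replicate 1 (0.068). SLC2A1, at 459 and 616 CPM in WT, 587 and 484 in clone C1 and 513 and 546 in clone C2, overlapped among all groups, with a log2 difference of 0 in C1 (95% interval -0.36 to 0.37), and of -0.02 in C2 with an interval of -0.38 to 0.35. Per kb of exon, SLC2A1 stood at 134 CPM per kb over the 6 libraries and SLC2A3 at 0.792, so the carrier that differed was the minor transcript of the pair in every group. SLC16A3 ranged from 413 to 682 CPM, overlapped among the groups and was not called; its exons overlap those of CSNK1D on the other strand, and the strand setting of the counting is not given.

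The first steps, from hexokinase to aldolase, trap glucose as a phosphate and cut it into trioses. HK2, the hexokinase typical of tumours, was the 1 of these 8 members that was called between groups. It measured 142 and 146 CPM in WT, 249 and 267 in clone C1, and 190 and 218 in clone C2, with no overlap between any of the 3 groups. With the block the log2 difference was 0.84 in C1 (SE 0.14, adjusted p = 0.0031, edgeR), 0.50 in C2 (SE 0.14, 0.06) and 0.67 in the mean (SE 0.12, 0.0044), and without it the adjusted p was 0.26, 0.69 and 0.22. C2 lay 0.34 below C1 on the log2 scale (adjusted p = 1 over all genes in both fits), so the clones were not shown to differ in HK2. The calls were lost without C2 replicate 1 or C2 replicate 2, at adjusted p of 0.056 and 0.053 in C1 and 0.077 and 0.1 in the mean. HK1, the housekeeping form, measured 108 and 116 CPM in WT, 81.2 and 96.7 in clone C1 and 76.9 and 115 in clone C2, and was not called (-0.34 in C1, adjusted p = 0.24 with the block). Per kb of exon, HK1 and HK2 were level in WT at 24.0 ± 1.28 and 24.2 ± 0.492 CPM per kb (SD, n = 2), and in C1 HK2 stood at 43.5 ± 2.17 beside 19.1 ± 2.35 for HK1. Over all libraries HK2 stood at 34.0 and HK1 at 21.2, and with the length of the principal transcript at 35.0 and 27.5, so the ratio of the pair depends on the length used.

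The other members of these steps overlapped between WT and each clone. GPI isomerises glucose 6-phosphate, PFKL, PFKM and PFKP are the phosphofructokinase subunits at the committed step, and ALDOA and ALDOC are aldolases. Their blocked log2 differences ran from -0.21 (GPI) to 0.10 (PFKM) in C1 and from -0.18 (PFKL) to 0.37 (ALDOC) in C2. ALDOA, the most abundant of the 8 by CPM, measured 1028 and 693 CPM in WT, 948 and 689 in clone C1 and 920 and 896 in clone C2. The 3 phosphofructokinase genes lay close together per kb, at 28.1 for PFKL, 32.7 for PFKM and 29.8 for PFKP, and all 3 overlapped in their libraries. ALDOA stood at 358 CPM per kb and ALDOC at 31.5. PFKM shares exon bases with SENP1 on the other strand. The PFKFB enzymes make and remove fructose 2,6-bisphosphate, the activator of phosphofructokinase. PFKFB3 measured 122 and 121 CPM in WT, 120 and 104 in clone C1 and 102 and 117 in clone C2, PFKFB2 ranged from 46.3 to 67.1 and PFKFB4 from 37.7 to 58.5, and 0 of the 3 passed in any comparison.

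**Figure D2:**
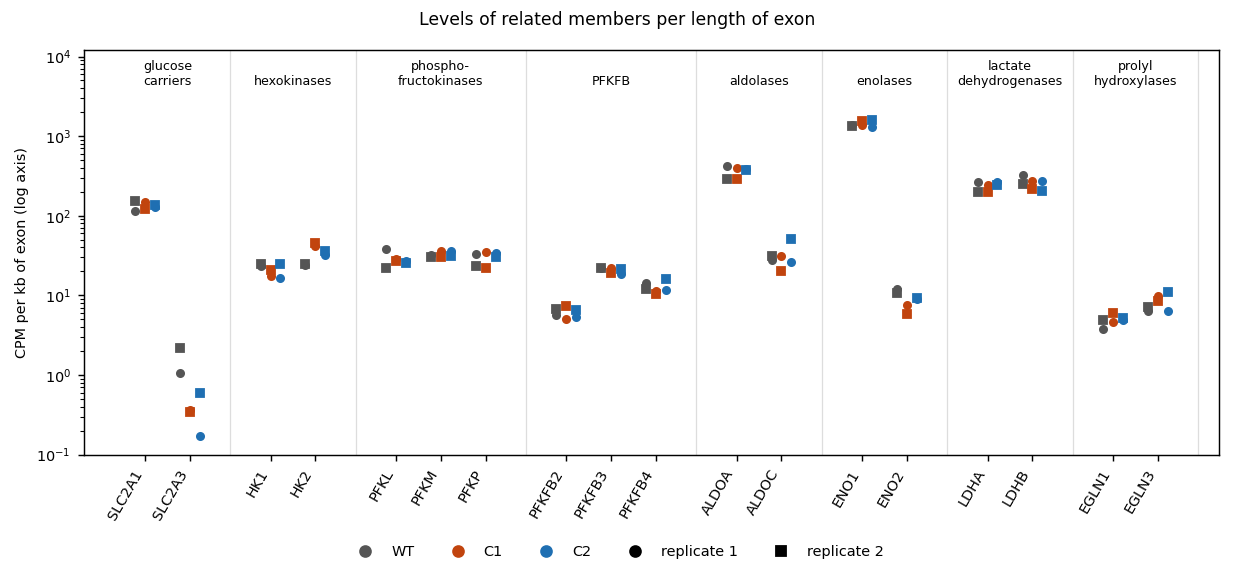
Level of related members in CPM per kb of exon (log axis) in each library; colours mark WT, C1 and C2, circles replicate 1 and squares replicate 2. SLC2A1, ALDOA and ENO1 stand far above SLC2A3, ALDOC and ENO2, HK2 lies above HK1 in the clones, and LDHA and LDHB are close.

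The lower chain turns trioses into pyruvate. TPI1 interconverts the trioses, GAPDH and PGK1 act at the first ATP gain, PGAM1 and the enolases rearrange the product, and PKM releases pyruvate. ENO2, the enolase of neurons and neuroendocrine cells, was the 1 of 7 called between groups. It measured 37.5 and 33.4 CPM in WT, 24.0 and 18.5 in clone C1, and 28.4 and 29.4 in clone C2, with every clone library below both WT libraries. The blocked log2 difference was -0.74 in C1 (SE 0.18, adjusted p = 0.024, edgeR), -0.29 in C2 (SE 0.18, 0.42) and -0.52 in the mean (SE 0.15, 0.046), and the main fit gave adjusted p of 0.46, 0.91 and 0.43. C2 was 0.45 above C1 in the blocked fit (SE 0.18, adjusted p = 1). The C1 call was lost without C1 replicate 2 (0.2), C2 replicate 1 (0.12) and C2 replicate 2 (0.12), and that of the mean held without C1 replicate 1 alone and was lost without each of the other 5 libraries (0.089 to 0.26). ENO1, the main enolase, measured 3350 and 3237 CPM in WT, 3355 and 3677 in clone C1 and 3110 and 3854 in clone C2, and differed by 0.09 in C1 (95% interval -0.22 to 0.40), and by 0.07 in C2 with an interval of -0.24 to 0.38. Per kb ENO1 was the highest of all members at 1430 CPM per kb, followed by PKM at 952 and GAPDH at 733, and ENO2 stood at 9.02. PKM differed by -0.07 in C1 and 0.06 in C2 and PGK1 by 0.15 and 0.37, and neither was called.

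Pyruvate is turned into lactate by LDHA and LDHB, and PDK1 holds it back from the mitochondria by inhibiting pyruvate dehydrogenase. LDHA measured 784 and 598 CPM in WT, 716 and 591 in clone C1 and 799 and 725 in clone C2, and LDHB 515 and 395, 439 and 340, and 433 and 322. Both overlapped between groups, with blocked differences of -0.08 and 0.15 for LDHA and -0.22 and -0.27 for LDHB in C1 and C2. Per kb of exon LDHB stood at 257 and LDHA at 236, and with principal transcripts at 265 and 291, so the order of the pair depends on the length used. PDK1 was low, between 10.5 and 20.7 CPM, and was not called.

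HIF1A encodes the oxygen-regulated alpha subunit, and EGLN1 and EGLN3 are hydroxylases that act on it. HIF1A measured 718 and 1766 CPM in WT, 1198 and 2314 in clone C1, and 1268 and 2200 in clone C2. The groups overlapped, while within each replicate number both clones lay above WT, by 0.74 and 0.82 on the log2 scale in replicate 1 and by 0.39 and 0.32 in replicate 2. With the block the log2 difference was 0.56 in C1 (SE 0.15, adjusted p = 0.045, edgeR), 0.57 in C2 (SE 0.15, 0.055) and 0.56 in the mean (SE 0.14, 0.02). The main fit gave 0.50, 0.48 and 0.49 with adjusted p of 0.93, 0.97 and 0.83. The C1 call did not hold without WT replicate 1 (0.36, adjusted p = 0.31), C1 replicate 1 (0.52, 0.06), C2 replicate 1 (0.57, 0.15) and C2 replicate 2 (0.57, 0.13), and in the mean without WT replicate 1 (0.36, 0.26), C2 replicate 1 (0.49, 0.17) and C2 replicate 2 (0.64, 0.12). EGLN1 ranged from 26.9 to 42.8 CPM and EGLN3 from 30.7 to 53.9, with blocked differences of 0.30 and 0.23 for EGLN1 and 0.47 and 0.34 for EGLN3, and neither was called.

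Among the secreted HIF targets and CA9, the blocked fit called VEGFA higher in each clone and ADM in the mean of both, and ANGPTL4 was not called. VEGFA, the vessel growth factor, measured 773 and 918 CPM in WT, 1318 and 1361 in clone C1, and 1154 and 1335 in clone C2. All 4 clone libraries lay above both WT libraries. The blocked log2 difference was 0.67 in C1 (SE 0.14, adjusted p = 0.012, edgeR), 0.56 in C2 (SE 0.14, 0.038) and 0.61 in the mean (SE 0.12, 0.0076), or 1.59-fold, 1.47-fold and 1.53-fold higher, and the main fit gave adjusted p of 0.5, 0.7 and 0.35. These calls were lost without C2 replicate 1 or C2 replicate 2 (0.097 and 0.086 in C1, 0.33 and 0.54 in C2, 0.099 and 0.12 in the mean), and in C2 also without WT replicate 1 (0.12). ADM, the vasodilator peptide adrenomedullin, measured 9.11 and 5.52 CPM in WT, 13.2 and 12.02 in clone C1, and 11.3 and 15.2 in clone C2, again without overlap between the clones and WT. Its blocked difference was 0.80 in C1 (adjusted p = 0.1), 0.88 in C2 (0.095) and 0.84 in the mean (SE 0.24, adjusted p = 0.048), and the main fit gave an adjusted p of 0.45 for the mean. With all 6 libraries the mean was the one comparison called, and that call was lost without WT replicate 2 (0.43, adjusted p = 0.35), C2 replicate 1 (1.07, 0.12) or C2 replicate 2 (0.63, 0.3). ANGPTL4, a lipase inhibitor, ranged from 3.84 to 7.91 CPM. CA9, the cell surface carbonic anhydrase often used as a marker of hypoxia, had 0 and 1 counts in WT, 5 and 1 in clone C1 and 3 and 9 in clone C2; the count of 0 allows up to 0.0959 CPM, counting error only, and no fold is given.

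**Figure D3:**
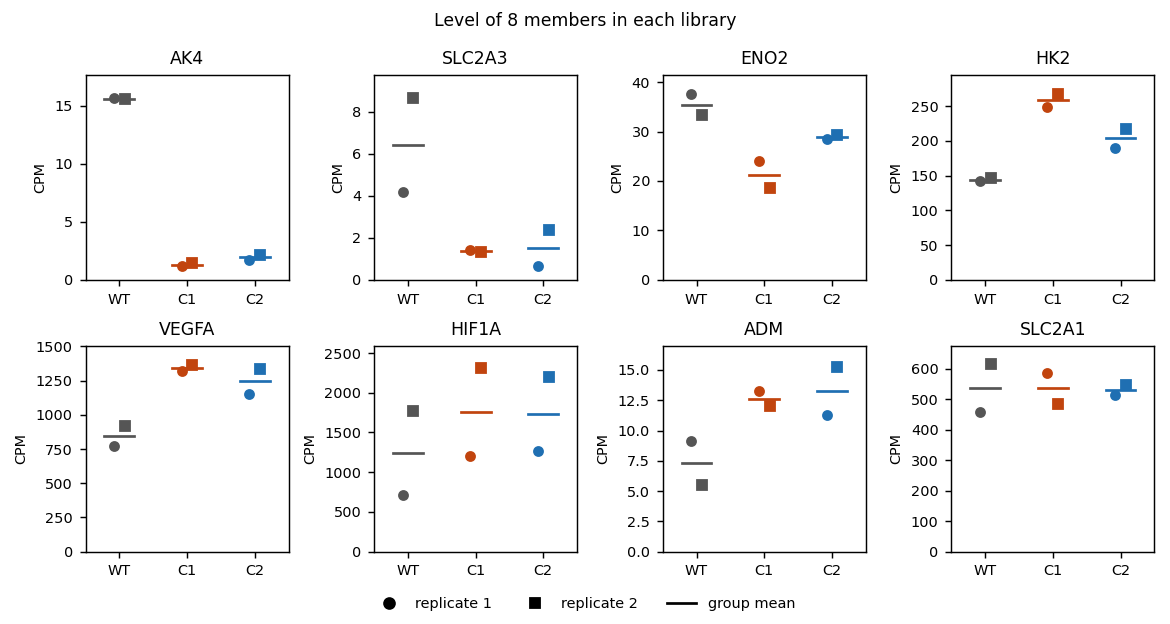
CPM (vertical axis, from 0) of 8 members in WT, C1 and C2; circles are replicate 1, squares replicate 2 and bars the mean of both. AK4, SLC2A3 and ENO2 are lower in all 4 clone libraries, HK2, VEGFA and ADM higher, HIF1A is higher in replicate 2 of every group, and SLC2A1 overlaps.

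AK4, a mitochondrial adenylate kinase that HIF raises in many cells, differed most of all members. It measured 15.7 and 15.6 CPM in WT, 1.16 and 1.47 in clone C1, and 1.72 and 2.17 in clone C2, so both WT libraries were almost equal and far above all 4 clone libraries. In the mean of the clones the main edgeR fit gave a log2 difference of -3.29 (SE 0.24, adjusted p = 0.022) and the blocked fit -3.30 (SE 0.21, adjusted p = 7.7e-07), which is 9.82-fold lower. For the single clones the main fit gave -3.57 in C1 (adjusted p = 0.08) and -3.00 in C2 (0.15), and the blocked fit -3.58 (SE 0.28, 9.6e-06) and -3.01 (SE 0.27, 3.3e-05), 12-fold and 8.07-fold lower. Across the 8 alternatives to the blocked fit the difference ran from -3.75 to -3.40 in C1 and from -3.18 to -2.84 in C2. The main call was lost without WT replicate 1 (0.24), WT replicate 2 (0.32), C1 replicate 1 (0.085), C1 replicate 2 (0.067), C2 replicate 1 (0.077) or C2 replicate 2 (0.086). The blocked calls in C1 and in the mean held in all 8 alternatives, with a highest adjusted p of 0.014 and 0.011, and that in C2 was lost without C2 replicate 1 (0.099) or C2 replicate 2 (0.096). C2 lay 0.57 above C1 (SE 0.29, adjusted p = 1, blocked). Pseudogenes named after AK4 held counts equal to 2.07% of its own.

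After these values were seen, the genes next to AK4 on chromosome 1 were also read. DNAJC6, its neighbour on one side, differed by -1.79 in the mean of the clones (adjusted p = 5.3e-05 blocked and 0.079 unblocked, edgeR), and RAVER2, the second gene on the other side, by -5.32 (3.7e-05 and 0.041) on only 94 counts in all libraries. JAK1, between RAVER2 and AK4, differed by 0.29 and LEPROT and LEPR beyond DNAJC6 by 0.29 and 0.05, and these 3 were not called. Next to SLC2A3 on chromosome 12, FOXJ2 differed by -0.22 and NECAP1 by -0.24, neither called, and SLC2A14, the near copy of SLC2A3, was listed at 0 counts in every library.

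The other HIF targets were not called between the groups. BNIP3 and BNIP3L, the mitophagy receptors, differed by -0.10 and -0.18 in C1 and 0.01 and -0.24 in C2 in the blocked fit. NDRG1, a stress response gene, was the least even member, at 54.1 and 107 CPM in WT, 139 and 118 in clone C1 and 45.7 and 182 in clone C2, and its 95% interval in C1 ran from -1.71 to 3.43. P4HA1 and P4HA2, collagen prolyl hydroxylases, differed by 0.19 and -0.26 in C1 and 0.26 and -0.08 in C2. KDM3A, a histone demethylase, measured 84.0 and 93.9 CPM in WT, 128 and 112 in clone C1, and 118 and 122 in clone C2. All its clone libraries lay above both WT libraries, at 0.43 in each clone (adjusted p = 0.11 and 0.13, blocked), which did not pass. ANKRD37 stayed between 0.702 and 1.30 CPM and shares exon bases with UFSP2 on the other strand.

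C2 and C1 were not shown to differ in any member. By edgeR 0% of all genes were called in that comparison, in the main fit and with the block alike, and 0 and 2 members had an unadjusted p under 0.05 (HK2 at 0.028 and ENO2 at 0.023, blocked). DESeq2 also called 0 members in either fit. With the block and C1 replicate 1 left out, ALDOC was called higher in C2 (1.15, adjusted p = 0.00019), and with C1 replicate 2 left out NDRG1 was called lower (-1.33, 1.1e-05).

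Between the replicates, the members were called about as often as all genes. The edgeR fit with the group as covariate called 5 of 38 members higher and 6 lower in replicate 2. Of all genes, 12.5% were called higher and 12.2% lower, so the members' shares were near those of all genes. The 6 lower members belong to the glycolytic chain, and the 5 higher ones are HIF1A and 4 HIF targets. Of the 17 members in the chain from hexokinase to pyruvate and lactate, 0 were higher and 6 lower, with a median log2 difference of -0.27, beside 0 over all genes. Of the 11 tested HIF targets outside the chain, 4 were higher and 0 lower, with a median of 0.19. The labels give no meaning to the number, so this describes libraries and not a treatment.

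The 6 that fell were GPI, PFKP, TPI1, GAPDH, PGAM1 and LDHB, and each was lower in replicate 2 in all 3 groups. GAPDH measured 2203 and 1332 CPM in WT, 1943 and 1009 in clone C1, and 1936 and 1361 in clone C2. All 3 replicate 2 libraries lay below all 3 replicate 1 libraries, and the log2 difference was -0.73 (SE 0.12, adjusted p = 0.00095). GPI measured 240 and 140, 192 and 131, and 205 and 164 CPM in the same order (-0.55, 0.0061), and PGAM1 46.0 and 26.6, 40.6 and 27.6, and 46.1 and 32.9 (-0.61, 0.0056). PGAM1 has many processed copies, and pseudogenes named after it held counts equal to 9.1% of its own. TPI1 measured 534 and 384, 452 and 293, and 487 and 383 CPM (-0.48, adjusted p = 0.0087). PFKP measured 125 and 88.6, 134 and 83.3, and 129 and 115 (-0.45, 0.024), and LDHB, given above, differed by -0.39 (0.02). ENO1, PKM and PGK1, which are as central to the chain, differed by 0.13, 0.04 and -0.14 and were not called. Of the 17 chain members 12 had negative differences and 5 positive, so the estimates were not all of 1 sign.

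Among the members HIF1A had the largest called difference between the replicates, at 1.01 (SE 0.13, adjusted p = 0.00012, edgeR), which is 2.02-fold, and was higher in replicate 2 in all 3 groups by 1.30, 0.95 and 0.79. BNIP3 measured 22.4 and 33.3 CPM in WT, 19.7 and 32.7 in clone C1, and 20.7 and 36.1 in clone C2, so that all replicate 2 libraries lay above all replicate 1 libraries (0.70, 0.0032). Pseudogenes named after BNIP3 held counts equal to 9.22% of its own. BNIP3L measured 121 and 161, 105 and 145, and 103 and 136 CPM (0.42, adjusted p = 0.018), and it shares exon bases with PNMA2 on the other strand. P4HA1 measured 54.6 and 95.2, 71.5 and 93.1, and 62.6 and 118 (0.70, 0.0026), and P4HA2 41.5 and 56.5, 34.0 and 48.2, and 35.8 and 58.1 (0.55, 0.0085). The targets VEGFA (0.17), ADM (-0.13) and KDM3A (0) were not called here. Of the 11 tested HIF targets 9 had positive differences and 2 negative, where 50.3% of all genes were positive, and 4 were called.

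**Figure D4:**
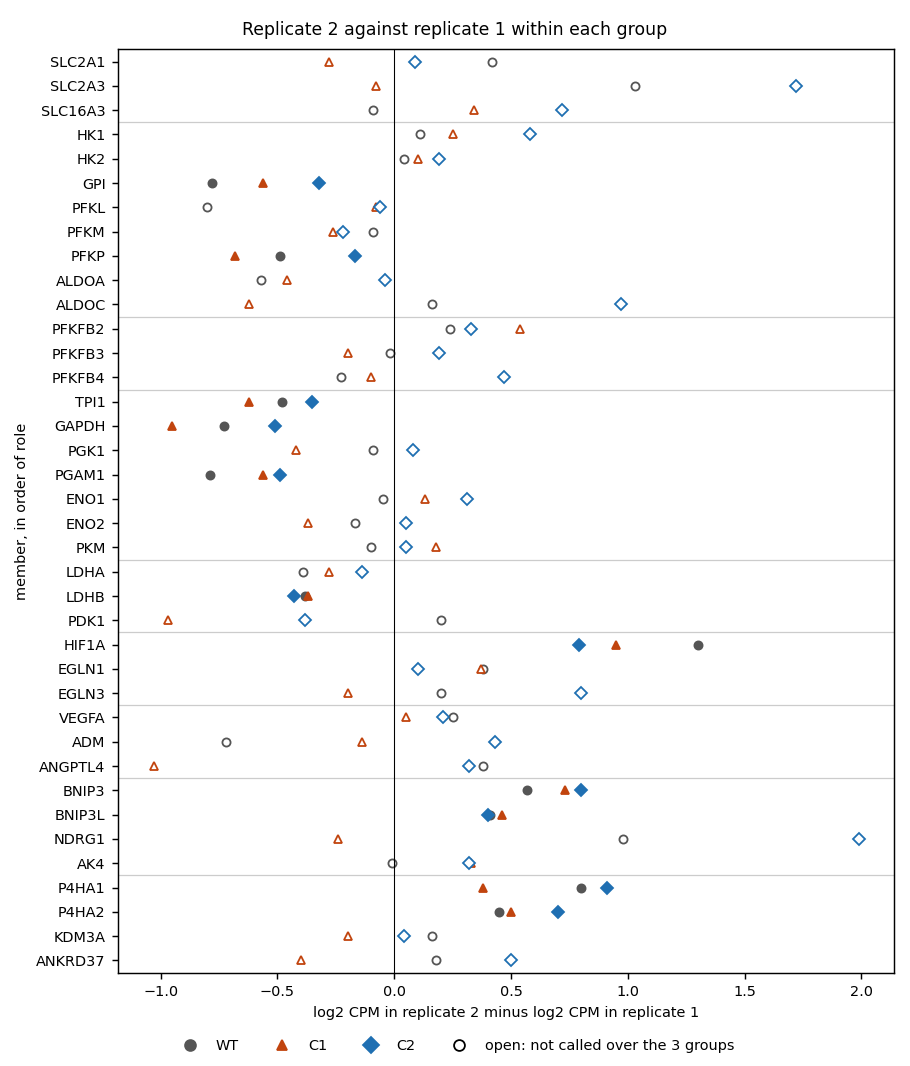
Log2 CPM of replicate 2 minus that of replicate 1 (horizontal axis) for each of the 38 tested members, within WT (circles), C1 (triangles) and C2 (diamonds); filled symbols mark members called over the 3 groups. GAPDH, PGAM1, GPI, TPI1, PFKP and LDHB lie left of 0 in all 3 groups, and HIF1A, BNIP3, BNIP3L, P4HA1 and P4HA2 right of 0.

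GAPDH and HIF1A were called in all 12 alternatives of this comparison, with a highest adjusted p of 0.042 and 0.033. The other 9 members lost the call without C2 replicate 1 or C2 replicate 2, at adjusted p between 0.062 (GPI) and 0.16 (LDHB). PFKP also lost it without C1 replicate 1 (0.16) or C1 replicate 2 (0.15), and BNIP3L without C1 replicate 2 (0.072). In the fit with no group term PFKP (0.086), TPI1 (0.07), LDHB (0.09) and BNIP3L (0.062) were not called. Beside these members, 9 of 23 proliferation genes were lower in replicate 2 and 0 higher, with a median of -2.05. Of 12 mitochondrially encoded subunits 11 were lower, with a median of -0.67, where 12.2% of all genes were lower. All mitochondrially encoded genes held 7.38%, 8% and 8.67% of gene counts in replicate 1 against 5.01%, 6.26% and 6.83% in replicate 2. The part of cell growth state or RNA composition in the members' differences was not tested.

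The wider pathway lists showed few calls between the clones and WT, and 0 in the main fit. The calls below are from the blocked fit, where 2.96% of all genes were higher and 4.07% lower in C1. In C2 these shares were 1.94% and 2.59%. Of 9 tested other carriers of glucose and monocarboxylates, 0 were higher and 1 lower in C1 (SLC2A6, a lysosomal carrier, -1.08, adjusted p = 0.023, blocked edgeR fit), and 0 were called in C2. Of 16 other glycolytic and gluconeogenic enzymes, 1 was lower in each clone, PGM2L1, which makes glucose 1,6-bisphosphate, at -0.91 (0.0033) and -0.84 (0.0066). It measured 79.8 and 198 CPM in WT, 43.4 and 104 in clone C1, and 49.7 and 98.8 in clone C2, so the groups overlapped and replicate 2 was higher in each. Of 12 genes for the entry of pyruvate into mitochondria and of 13 genes of the oxygen sensing machinery, 0 were called in either clone or in the mean. Among 37 other hypoxia targets, 1 was higher and 1 lower in C1, and 0 were higher and 1 lower in C2. VLDLR, a lipoprotein receptor, was higher in C1 (0.81, 0.011), and STC2, a secreted glycoprotein, was lower in C2 (-1.14, 0.002). In replicate 2 against replicate 1, 11 of these 37 were higher and 2 lower, where 12.5% of all genes were higher and 12.2% lower. DDIT4, an inhibitor of mTORC1 signalling, differed by 1.24 (0.00096) and SPAG4 by 0.95 (0.0046). EPAS1, which encodes HIF-2 alpha, was also higher there at 0.58 (0.0024), and CITED2, which competes with HIF for its co-activator, at 0.75 (0.0011), while RBX1, a ubiquitin ligase subunit, was lower at -0.65 (0.01).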

How the data were processed

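RNA was sequenced in 6 libraries. The deposited values are raw counts of reads per gene, 1 column a library. Per the submitters' processing notes, the authors used cutadapt 1.6, STAR 2.5.0a and HTSeq 0.5.3 with the build hg19; the strand setting and annotation are not given in the sources used here. The 5 rows that are not genes were left out, and 77.6% to 78.7% of the counts listed were in genes. Counts of the 2 libraries of a group differed by far more than sampling noise, with a chi-square per gene of 98.1 (WT), 127 (C1) and 112 (C2).

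Counts were tested in R 4.3.3 with the quasi-likelihood F test of edgeR 4.0.16 (limma 3.58.1), TMM scaling, filterByExpr over the 3 groups, all 6 libraries in 1 fit, and Benjamini-Hochberg adjustment over 17129 genes, with calls at an adjusted p below 0.05. Log2 values per library used a prior count of 2. The main fit has no block and 3 residual degrees of freedom, and adding the replicate number as a factor (the block) leaves 2. Deviations of same-numbered libraries from their group means correlated by 0.584 (WT and C1), 0.634 (WT and C2) and 0.701 (C1 and C2), and all exceed 0.1, so the blocked values are printed beside those of the main fit, which takes no account of pairs. This rests on the data alone, and with 2 libraries a group the deviations are mirror images, so the check cannot show what the libraries share. The script was tested on simulated data.

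The members and gene lists were chosen with earlier results of these data known. All members could be named. Values per library are given for members called in any comparison by either fit and for the most abundant of each role, with some others added after their values were seen. From the other lists at most 4 called genes each were to be named, by size of difference. Genes not reported here were skipped, even where theirs was the largest called difference of a list. VLDLR, the cell type markers and the neighbours of AK4 and SLC2A3 are named beyond this rule. Levels per kb divide CPM by the exon length of GENCODE 29 coding transcripts, a release on another build, so no gene coordinates are given; the length of the principal transcript was added as an alternative after seeing the data. Promoter letters came from RefSeq. Other alternatives were DESeq2 1.42.0, other scalings and filters, and leaving out each library. Some genes of the other lists are not reported here.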

Additional observations from a re-analysis of the deposited data

How the results depend on the processing

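No called difference of a member reversed its sign under the alternatives run. In the fits without the block, DESeq2 called 1 member higher and 1 lower in C1, 1 lower in C2, and 1 higher and 2 lower in the mean of the clones, and no filter on low counts gave 2 lower in C1, 1 in C2 and 2 in the mean, against 0, 0 and 1 in edgeR with the filter. With the replicate block, 3 were higher and 3 lower in C1, 1 higher and 2 lower in C2, and 4 higher and 3 lower in the mean; the block changed no call between C2 and C1, and the replicate block with DESeq2 gave 2 higher in C2. Leaving out each library gave 0 to 0 lower in the mean without the block. With the block, leaving out each library gave 0 to 5 higher and 1 to 4 lower in C1, 0 to 4 higher and 0 to 2 lower in C2, 0 to 1 in each direction between C2 and C1, and 0 to 7 higher and 1 to 3 lower in the mean. For replicate 2 against replicate 1, total counts without TMM gave 8 higher, the fit without a group term 3 lower, and leaving out each library 1 to 9 higher and 1 to 7 lower. Over all genes, calls without the block rose from 2 to 296 (no filter) and 270 (DESeq2) in C1, from 2 to 209 (both) in C2 and from 34 to 436 and 393 in the mean, where a mean CPM of at least 1 left 9; with the block 1204, 777 and 1669 were called. Between C2 and C1, DESeq2 with the block called 20 genes. Total-count scaling moved the median of all genes by -0.102 in C1, -0.106 in C2 and -0.104 in the mean on the log2 scale. Where a fit leaves a group with 1 library, that library is assumed to vary like the others. The causes of these changes were not tested. With 2 libraries a group, members that did not pass are not shown to be equal.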

Other observations

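The pentose phosphate pathway branches off glycolysis and supplies NADPH and ribose. RPE, an epimerase of its later steps, measured 70.3 and 75.8 CPM in WT, 53.6 and 47.4 in clone C1, and 59.2 and 49.3 in clone C2, so that all 4 clone libraries lay below both WT libraries. It was called in the mean of the clones with the block (log2 difference -0.49, adjusted p = 0.041, edgeR), against an adjusted p of 0.41 without it. Of the 7 tested genes of this pathway, 2 were lower and 0 higher in that blocked comparison, where 5.63% of all genes were called lower. RPE had the smaller of these 2 differences, and the other gene is not reported here.

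The 12 listed mitochondrially encoded subunits, of the respiratory chain and of ATP synthase, lay on the other side. All 12 had positive differences in the mean of the clones, with a median of 0.40 in the blocked fit beside -0.01 over all genes. With the block 4 were called higher, where 4.12% of all genes were called higher, and the main fit called 0. Of these 4, MT-ND1, MT-ND6 and MT-CYB overlapped between the clones and WT. MT-CO3, a subunit of cytochrome c oxidase, measured 6920 and 5229 CPM in WT, 9424 and 8111 in clone C1, and 9493 and 8751 in clone C2, without overlap between the clones and WT (0.57 in the mean, SE 0.13, adjusted p = 0.013 with the block and 0.47 without it, edgeR). These subunits share 1 genome and its transcripts, so they are not separate observations.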
